A study of Arabidopsis thaliana with 18 samples.

Results

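The DAP-seq peaks of 2 protein mixtures, FUL-AG-SEP3 and FUL-AG, were compared to describe which genomic sites were held in the presence and in the absence of SEP3 beside FUL and AG. Peaks on the nuclear chromosomes were divided by position into those shared between the lists, where a peak overlapped a peak of the other list by at least 1 bp, and those found only in FUL-AG-SEP3 or only in FUL-AG. Of the 16010 nuclear peaks in the 5 peak lists of the study, 7250 belong to this comparison, 4436 in the FUL-AG-SEP3 list and 2814 in the FUL-AG list. Of the FUL-AG-SEP3 peaks, 2161 had no FUL-AG partner (48.7% of that list), and 2275 were shared. Of the FUL-AG peaks, 536 had no FUL-AG-SEP3 partner (19% of that list), and 2278 were shared.

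The study has 18 samples in 6 conditions with 3 replicates each: the mixtures FUL-AG-SEP3, FUL-AG, FUL-SEP3, FUL-SOC1 and FUL alone, and an input. In DAP-seq, naked genomic DNA fragments are offered to protein made outside the cell, and the fragments that stay on the protein are sequenced. In the FUL-AG-SEP3 mixture FUL, AG and SEP3 were made together in a wheat germ extract from equimolar plasmids, and in the FUL-AG mixture FUL and AG were. Both mixtures therefore contain FUL and AG, in both only FUL carried the 3×FLAG tag used for recovery, and both received 400 ng of one kind of library, prepared from genomic DNA of Col-0 leaves of 2-week-old seedlings. The tag allows a fragment to be held by FUL alone or with AG, and with SEP3 where SEP3 was present. The complex that held a fragment was not measured. In the paper's gel shifts of FUL, AG and SEP3, a FUL-AG dimer and a FUL-SEP3-AG-SEP3 tetramer appeared the most abundant complexes with FUL. None of the 6 conditions was a pull-down without tagged FUL, so fragments recovered without FUL cannot be told apart. Because the total amount of plasmid was the same, the share of FUL plasmid was lower in the mixture of 3 proteins, and this cannot be told apart from the presence of SEP3. Each list is 1 set of peaks called on the 3 replicates combined, so that no peak has a value per replicate. Shares are given with 95% Wilson intervals over peaks, which cover counting error only, and no p-value was computed.

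FUL (FRUITFULL), AG (AGAMOUS) and SEP3 (SEPALLATA3) are MADS-domain transcription factors, which bind DNA as dimers at the CArG-box, a short A/T-rich core between a CC and a GG. SEP proteins are known as the partners that join dimers into tetramers, which can hold a pair of CArG-boxes by looping the DNA between them. AG specifies stamens and carpels, and FUL acts in the floral transition and in the valves of the fruit.

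The sites on which the comparison turns are shown first as TAIR10 sequence on the forward strand (RefSeq copy of the assembly), 200 bp centred on the peak summit. Capitals mark boxes with at most 1 mismatch to the 10 bp CArG-box and boxes of the MEF2 type (CTA, 4 A or T bases, TAG). The first 3 windows come from peaks only in FUL-AG-SEP3, near SUP (chr3:8241235-8241434), in AGL79 (chr3:11910393-11910592) and near AGL21 (chr4:17839536-17839735), the next from a shared peak near CKX1 (chr2:17311623-17311822), and the last from a peak only in FUL-AG, in SULTR1;1 (chr4:5500721-5500920).
SUP upstream: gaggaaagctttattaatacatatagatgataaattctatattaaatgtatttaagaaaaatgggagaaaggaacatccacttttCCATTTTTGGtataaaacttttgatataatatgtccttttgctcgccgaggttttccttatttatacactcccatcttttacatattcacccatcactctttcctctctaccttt
AGL79 intron: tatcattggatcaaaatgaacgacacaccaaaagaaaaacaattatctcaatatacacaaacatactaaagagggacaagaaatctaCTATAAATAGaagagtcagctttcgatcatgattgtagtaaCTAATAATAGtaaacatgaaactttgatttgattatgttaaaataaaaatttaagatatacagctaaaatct
AGL21 upstream: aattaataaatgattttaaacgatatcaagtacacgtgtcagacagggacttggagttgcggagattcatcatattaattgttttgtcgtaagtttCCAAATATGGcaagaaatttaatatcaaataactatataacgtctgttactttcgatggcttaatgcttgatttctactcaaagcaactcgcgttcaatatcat
CKX1 upstream: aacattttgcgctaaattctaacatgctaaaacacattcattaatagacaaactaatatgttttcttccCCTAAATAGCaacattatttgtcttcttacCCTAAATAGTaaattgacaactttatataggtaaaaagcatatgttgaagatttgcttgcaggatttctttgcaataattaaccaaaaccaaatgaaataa
SULTR1;1 intron: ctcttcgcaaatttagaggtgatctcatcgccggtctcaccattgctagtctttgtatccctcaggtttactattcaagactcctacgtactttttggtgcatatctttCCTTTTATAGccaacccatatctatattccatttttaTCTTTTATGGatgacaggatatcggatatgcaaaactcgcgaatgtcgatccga

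The FUL-AG-SEP3 list was the longer, and the lists differed in how much of each was shared. Of the FUL-AG-SEP3 peaks, 51.3% overlapped a FUL-AG peak (49.8% to 52.8%), whereas 81.0% of the FUL-AG peaks overlapped a FUL-AG-SEP3 peak (79.5% to 82.4%). When only the 2814 FUL-AG-SEP3 peaks of smallest p were kept, as many as there are FUL-AG peaks, the shares were 64.0% in FUL-AG-SEP3 and 64.1% in FUL-AG. The unpaired share varied little between chromosomes, from 47.1% on chromosome 1 to 50.1% on chromosome 5 in FUL-AG-SEP3, and from 17.8% on chromosome 4 to 20.9% on chromosome 1 in FUL-AG.

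The division was sharp in position. The distances are between called peaks and do not show that a site was unbound in the other mixture. For FUL-SOC1 and FUL-AG-SEP, the paper reports that many peaks listed as unique differed in height rather than in presence. The summits of shared peaks lay a median of 21 bp apart (lower and upper quartile 8 and 42 bp), and 93.8% of the pairs had summits within 100 bp. The weakest pair overlapped by 7 bp and the next by 61 bp. Outside the limit, the nearest unpaired peaks of the 2 lists were 4 bp apart and the next 49 bp, while the median distance to the other list was 14039 bp for peaks only in FUL-AG-SEP3 and 9158 bp for peaks only in FUL-AG. In total 94.8% of the peaks only in FUL-AG-SEP3 and 92.5% of those only in FUL-AG lay over 1000 bp from any peak of the other list.

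Unpaired peaks were ranked by fold enrichment, the pileup at the summit over the local background, and expressed as a percentile of their own list (100 is the highest), since the read depth behind each list was not known here and fold values were not set against each other between lists. In FUL-AG-SEP3 the unpaired share was 70.5% in the lowest decile of the list, 60.4% in the fifth, 28.4% in the eighth and 5.63% in the highest decile (3.84% to 8.18%, 25 of 444 peaks). In FUL-AG the unpaired share was 39.0% in the lowest decile and 7.83% in the eighth. All 286 peaks of the highest FUL-AG decile had a FUL-AG-SEP3 partner (0% unpaired, with an upper limit of 1.33%). The sites of the highest FUL-AG decile were thus all present in the FUL-AG-SEP3 list, and most unpaired peaks lay lower in their lists.

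**Figure D1:**
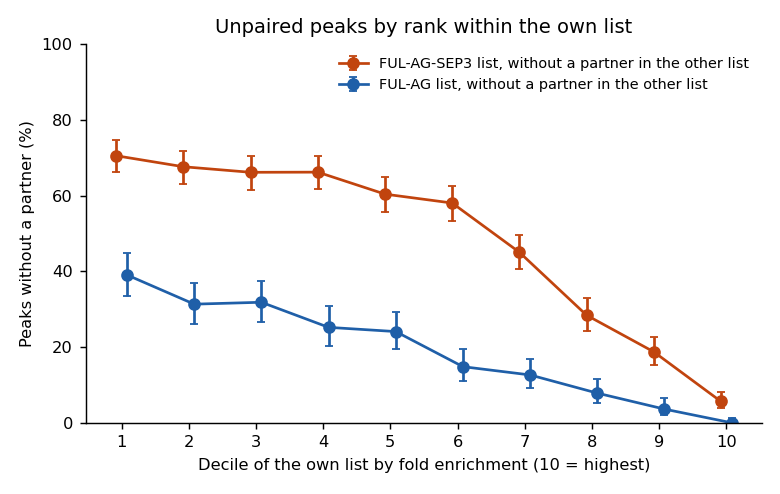
Share of peaks without a partner in the other list (vertical axis, %) in each decile of the own list by fold enrichment (horizontal axis, 10 is the highest), for the FUL-AG-SEP3 list (orange) and the FUL-AG list (blue), with 95% Wilson intervals over peaks. The share falls to 5.63% in the highest FUL-AG-SEP3 decile and to 0% in the highest FUL-AG decile.

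The peaks only in FUL-AG-SEP3 had a median percentile of 36.0 in their list, against 68.3 for the shared peaks of that list, and a median fold of 2.94 against 3.46. The peaks only in FUL-AG had a median percentile of 27.9 in the FUL-AG list, against 57.0 for its shared peaks, and a median fold of 2.89 against 3.34. The highest unpaired peak reached a fold of 4.89 in FUL-AG-SEP3, where the highest shared peak had 9.70. In FUL-AG the highest unpaired peak reached 4.17 and the highest shared peak 9.39. Unpaired peaks were also narrower, with medians of 244 bp against 305 bp in FUL-AG-SEP3 and 215 bp against 257 bp in FUL-AG. A deposited p below 0.0001 was held by 97.4% of the peaks only in FUL-AG-SEP3 and 97.2% of those only in FUL-AG. This threshold removed little from either list, since 4360 of 4436 FUL-AG-SEP3 peaks and 2780 of 2814 FUL-AG peaks passed it. The lowest −log10 p was 3.07 in FUL-AG-SEP3 and 3.27 in FUL-AG. Passing it therefore does not show how firm the unpaired peaks are. The paper lost most of its sites for the mixture with SEP3 at its own strict cut-off, which was not reproduced here.

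Shared peaks kept a similar but not identical order. Over the 2275 FUL-AG-SEP3 peaks with a partner, the percentiles in both lists had a Pearson correlation of 0.64 (Spearman 0.66 for the folds), given as a description across sites that share the DNA library and the input. A percentile of the whole list depends on the unpaired peaks it holds, and the FUL-AG-SEP3 list, the longer, held more low unpaired peaks below its shared ones. By these percentiles 62.9% of the pairs stood higher in FUL-AG-SEP3, 109 of them by more than 50 points, and 30 pairs stood more than 50 points lower there. Ranked among the shared pairs alone, an alternative chosen after seeing the data, 49.1% stood higher in FUL-AG-SEP3, 51 by more than 50 points, and 49 stood more than 50 points lower there. With that ranking the numbers in both directions were close.

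**Figure D2:**
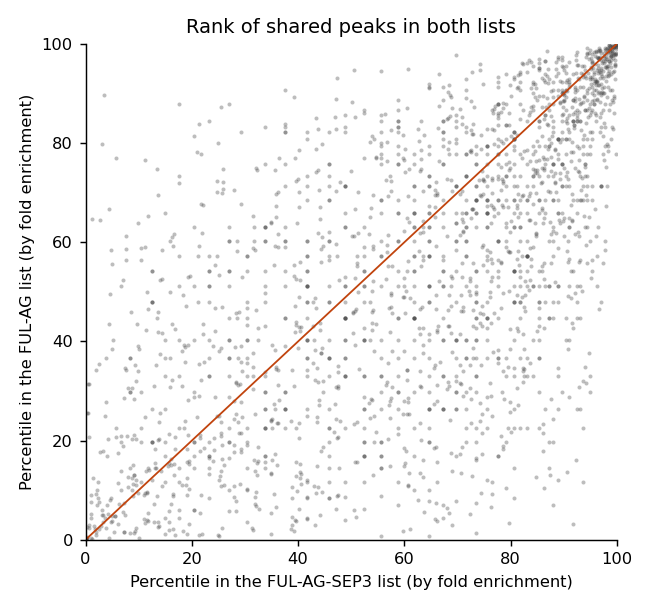
Percentile by fold enrichment of each of the 2275 shared peaks in the FUL-AG-SEP3 list (horizontal axis) and in the FUL-AG list (vertical axis), 1 point per pair, with the line of equal percentile in orange. The points crowd at the upper right corner, where the highest peaks of both lists meet, and 62.9% of them lie below the line, a share that depends on list length and was 49.1% with ranks among the pairs alone.

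The 8 shared peaks of highest mean percentile over both lists lay mostly beside pseudogenes. Of all 2275 shared peaks, 16.4% had a pseudogene as the nearest gene (14.9% to 17.9%). The first in both lists had its nearest start at AT3G43142, with a fold of 9.70 in FUL-AG-SEP3 and 9.39 in FUL-AG. Others were peaks near AT3G15602 (fold 7.08 in FUL-AG-SEP3 and 7.75 in FUL-AG) and AT3G43526 (8.65 in FUL-AG-SEP3 and 7.45 in FUL-AG). Of these 8, the nearest gene was protein coding only for AT3G53960, a member of the major facilitator superfamily (7.06 in FUL-AG-SEP3 and 6.17 in FUL-AG).

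Genes of the 4 gene lists described further on stood near the top as well, with fold values given for each list and not compared between them. AGL18, a MADS-box repressor of flowering, had a shared peak in its 5′ UTR with a fold of 7.16 in FUL-AG-SEP3 and 5.53 in FUL-AG, and its box of no mismatch lay 1.5 bp from the summit. CKX1, which encodes a cytokinin-degrading oxidase, had one 2689 bp upstream of its start (6.74 in FUL-AG-SEP3 and 6.11 in FUL-AG), where the sequence above holds 2 boxes of 1 mismatch. AGL24, a MADS-box promoter of flowering, had one in an intron (6.26 in FUL-AG-SEP3 and 5.47 in FUL-AG). In the order AGL18, CKX1 and AGL24, the percentiles were 99.9, 99.8 and 99.5 in FUL-AG-SEP3 and 98.1, 99.3 and 97.9 in FUL-AG.

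Some shared sites stood far apart in the 2 lists, in the same direction when ranked among the pairs alone. The peak nearest to 5-FCL, in the 3′ UTR of AT5G13030, stood at percentile 91.8 in FUL-AG-SEP3 and at 3.25 in FUL-AG. A peak upstream of NAC014, a NAC-domain gene, stood at 93.6 in FUL-AG-SEP3 and 11.7 in FUL-AG, and one upstream of ORA47, an AP2/ERF gene, at 88.9 in FUL-AG-SEP3 and 12.2 in FUL-AG. In the other direction, the peak nearest to the pseudogene AT2G07365 stood at 3.43 in FUL-AG-SEP3 and 89.8 in FUL-AG, and a peak in a coding exon of AT5G02860 at 3.01 in FUL-AG-SEP3 and 79.9 in FUL-AG.

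The unpaired peaks also differed in their overlap with the 3 other lists. A FUL-SEP3 peak was overlapped by 16.3% of the peaks only in FUL-AG-SEP3 (14.8% to 17.9%, 352 peaks), by 35.6% of the shared peaks (33.6% to 37.6%) and by 4.29% of the peaks only in FUL-AG (2.88% to 6.36%, 23 peaks). The FUL list overlapped 25.2%, 48.4% and 16.8% of the same classes. The FUL-SOC1 list, the longest of the 5 with 4809 nuclear peaks, overlapped 37.9%, 63.8% and 30.4%. None of the 3 other lists held a peak at 44.8% of the sites only in FUL-AG-SEP3 (42.8% to 46.9%), at 21.2% of the shared sites and at 59.1% of the sites only in FUL-AG (54.9% to 63.2%).

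**Figure D3:**
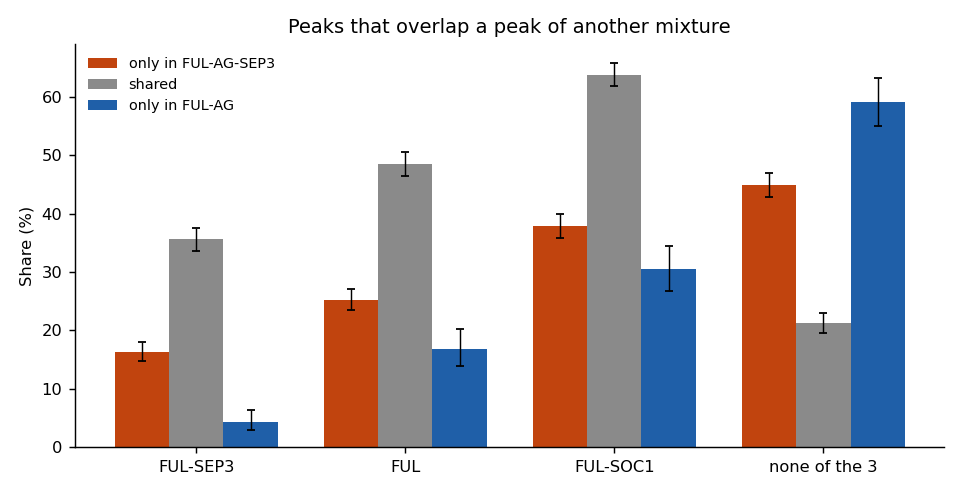
Share (vertical axis, %) of peaks only in FUL-AG-SEP3 (orange, n = 2161), shared (grey, n = 2275) and only in FUL-AG (blue, n = 536) that overlap a peak of FUL-SEP3, FUL or FUL-SOC1, or of none of these 3 lists, with 95% Wilson intervals. Shared peaks are the highest in each of the 3 lists, and the FUL-SEP3 list overlaps 16.3% of the peaks only in FUL-AG-SEP3 against 4.29% of those only in FUL-AG.

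Overlap with FUL-SEP3 was more frequent at higher rank, also among the shared peaks (6.78%, 15.3%, 28.2% and 59.5% by quartile of the FUL-AG-SEP3 list, lowest first), and the intervals of the unpaired classes were apart in the upper 3 quartiles of the list. In the lowest quartile of the own list, 6.49% of the peaks only in FUL-AG-SEP3 and 2.90% of those only in FUL-AG overlapped a FUL-SEP3 peak, with intervals that overlap (4.95% to 8.45% and 1.41% to 5.87%). In the second quartile the shares were 12.8% (10.5% to 15.5%) in FUL-AG-SEP3 and 3.76% (1.83% to 7.56%) in FUL-AG, and in the third 24.6% (21.1% to 28.5%) and 8.24% (4.05% to 16.0%). In the highest quartile they were 48.9% (41.5% to 56.2%, 174 peaks) in FUL-AG-SEP3 and 8.33% (2.32% to 25.8%, 24 peaks) in FUL-AG.

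The peaks only in FUL-AG-SEP3 lay less often within genes, and more often upstream of them, than those only in FUL-AG. Of the summits only in FUL-AG-SEP3, 54.5% lay within an annotated gene (52.4% to 56.6%), against 63.4% of the shared summits (61.4% to 65.4%) and 74.3% of those only in FUL-AG (70.4% to 77.8%), while genes cover 64.1% of the nuclear bases. Among gene parts the difference was greatest in coding exons, which held 13.3% of the summits only in FUL-AG-SEP3 (11.96% to 14.8%), 17.3% of the shared ones and 26.5% of those only in FUL-AG (22.9% to 30.4%). Coding exons make up 28.3% of the genome. Outside genes, the 1 kb upstream of a gene start held 24.2% of the summits only in FUL-AG-SEP3 (22.5% to 26.1%), 19.4% of the shared ones and 14.2% of those only in FUL-AG (11.5% to 17.4%), with 17.4% of the genome.

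**Figure D4:**
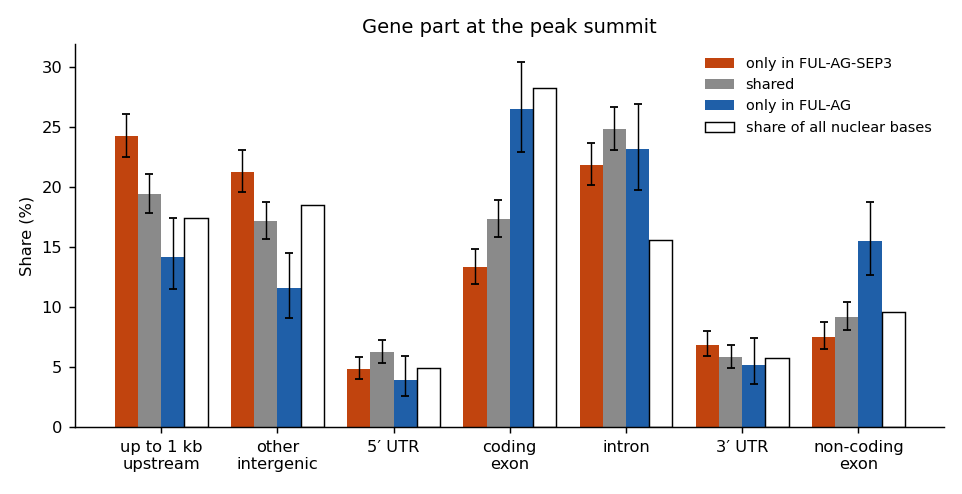
Share (vertical axis, %) of summits in each gene part (horizontal axis) for peaks only in FUL-AG-SEP3 (orange), shared (grey) and only in FUL-AG (blue), with 95% Wilson intervals, beside the share of all nuclear bases (white). Coding exons hold 13.3% of the summits only in FUL-AG-SEP3 and 26.5% of those only in FUL-AG, and the 1 kb upstream of genes holds 24.2% and 14.2%.

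Introns did not separate the unpaired classes, with 21.8% of the summits only in FUL-AG-SEP3 (20.2% to 23.6%) and 23.1% of those only in FUL-AG (19.8% to 26.9%), against the 15.6% of bases that are intronic. Exons of non-coding genes and pseudogenes held 7.54% of the summits only in FUL-AG-SEP3 (6.50% to 8.73%) and 15.5% of those only in FUL-AG (12.7% to 18.8%). These exons held 9.19% of the shared summits and make up 9.59% of the genome. A pseudogene was the nearest gene of 13.8% of the peaks only in FUL-AG-SEP3 (12.4% to 15.4%) and of 21.5% of those only in FUL-AG (18.2% to 25.1%). The share of summits within 3 Mb of the middle of a pericentromere was 21.9% in FUL-AG-SEP3 only (20.2% to 23.7%) and 27.2% in FUL-AG only (23.6% to 31.2%), intervals that overlap slightly. Of the shared summits 23.4% lay there (21.7% to 25.2%), and the share of the genome in these stretches was not computed. How reads that match several places were treated is not given in the sources used here.

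Coding exons held a larger share of the peaks only in FUL-AG in each quartile of rank. In the lowest quartile of the own list, coding exons held 18.3% of the peaks only in FUL-AG-SEP3 (15.7% to 21.2%) and 25.7% of those only in FUL-AG (20.6% to 31.6%), intervals that overlap slightly. In the second quartile the shares were 11.2% (9.07% to 13.8%) in FUL-AG-SEP3 and 22.0% (16.7% to 28.5%) in FUL-AG, and in the third quartile 11.7% (9.24% to 14.8%) in FUL-AG-SEP3 and 32.9% (23.9% to 43.5%) in FUL-AG. In the highest quartile 8 of 174 peaks only in FUL-AG-SEP3 lay in coding exons (4.60%, 2.35% to 8.81%), against 11 of 24 only in FUL-AG (45.8%, 27.9% to 64.9%).

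Base composition moved with the gene parts. The 200 bp around the summit had a GC content of 34.1% ± 5.1 in peaks only in FUL-AG-SEP3 (SD over peaks, n = 2161), 35.5% ± 5.0 in shared peaks and 37.9% ± 4.9 in peaks only in FUL-AG (n = 536). Outside genes the values were 31.9% in FUL-AG-SEP3 only (n = 984) and 35.1% in FUL-AG only (n = 138), and in introns 34.6% (n = 472) and 37.0% (n = 124). In coding exons they came closer, at 39.7% (n = 288) and 40.3% (n = 142). The part of base composition in the other differences was not tested.

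CArG-boxes were found in all classes well above the genome. The box searched was CC, 6 A or T bases and GG, which reads the same in kind on both strands. An exact box lay in 11.7% of the windows only in FUL-AG-SEP3 (10.4% to 13.1%), 16.7% of the shared windows (15.3% to 18.3%) and 10.6% of the windows only in FUL-AG (8.30% to 13.5%). In control windows 1000 bp to the right the shares were 0.925%, 0.923% and 1.12%, and of all 595730 consecutive windows of 200 bp in the nuclear genome 1.23% held one. With 1 mismatch allowed the shares were 65.1%, 71.2% and 66.6% at the summits, against 22.4% of all genomic windows. The unpaired classes thus had overlapping intervals for both counts, and the shared peaks stood above both for the exact box.

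**Figure D5:**
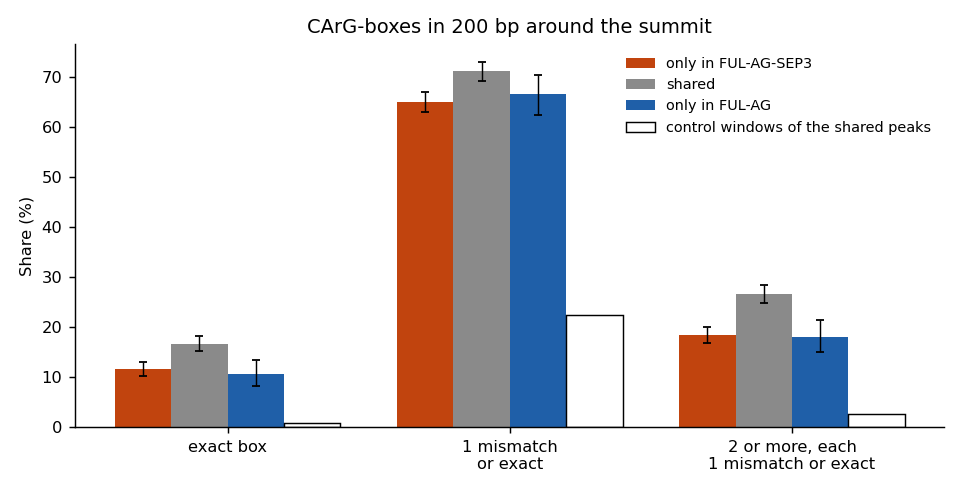
Share (vertical axis, %) of 200 bp summit windows that hold an exact CArG-box, a box with at most 1 mismatch, or 2 or more such boxes, for peaks only in FUL-AG-SEP3 (orange), shared (grey) and only in FUL-AG (blue), with 95% Wilson intervals, beside the control windows of the shared peaks (white). The unpaired classes stand near each other in all 3 counts, and the shared peaks above them for the exact box (16.7%) and for several boxes (26.6%).

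Since SEP proteins are known to join dimers into tetramers, windows with several boxes were counted. At least 2 boxes of at most 1 mismatch that did not overlap lay in 18.4% of the windows only in FUL-AG-SEP3 (16.8% to 20.1%), 26.6% of the shared windows (24.8% to 28.4%) and 18.1% of the windows only in FUL-AG (15.1% to 21.6%). Control windows held them in 2.87%, 2.64% and 2.24% of cases. Windows with 2 exact boxes were rare, 4 only in FUL-AG-SEP3, 13 shared and 0 of 536 only in FUL-AG. Within 300 bp windows, the best pair of boxes was a median of 71 bp apart in FUL-AG-SEP3 only, 68 bp in shared peaks and 74 bp in FUL-AG only. Distances within 2 bp of a whole number of helical turns (10.5 bp) made up 44.3%, 45.2% and 48.4%, where 44.0% of all whole-number distances from 10 to 150 bp meet that condition. The intervals of the unpaired classes overlapped for the share of windows with several boxes. The spacing was counted without an interval.

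At like rank, the intervals for the exact box overlapped between the shared peaks and those only in FUL-AG-SEP3 in each of the 4 quartiles. For 2 or more boxes of at most 1 mismatch, they were apart in the third quartile and overlapped in the others. There the shares were 19.6% only in FUL-AG-SEP3 (16.4% to 23.2%) and 26.8% of the shared peaks (23.4% to 30.5%). In the lowest quartile of the list, an exact box lay in 8.95% of the peaks only in FUL-AG-SEP3 and 10.03% of the shared ones, in the second quartile in 11.1% and 14.8%, in the third quartile in 14.6% and 14.7%, and in the highest quartile in 17.2% (12.4% to 23.5%) and 21.3% (18.8% to 24.1%). The best exact boxes were close to the summit in each class, at a median of 15.5 bp in FUL-AG-SEP3 only, 15.5 bp in shared peaks and 21.5 bp in FUL-AG only.

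The bases beside the box were compared as well. Of the best boxes with at most 1 mismatch, 21.4% of those only in FUL-AG-SEP3 had A or T at all 3 positions on either side (19.3% to 23.6%), as had 21.1% of the shared ones (19.2% to 23.2%) and 15.1% of those only in FUL-AG (11.8% to 19.2%). The intervals of the unpaired classes were narrowly apart here. Of the 6 single positions, those of the unpaired classes were apart only at the base that follows the GG on the forward strand. It was A or T in 70.6% of the boxes only in FUL-AG-SEP3 (68.2% to 73.0%) and in 62.5% of those only in FUL-AG (57.3% to 67.3%). At the matching base before the CC the shares were 70.6% and 68.1% (63.1% to 72.7%). The intervals of the shared boxes and of those only in FUL-AG were also apart at the base after the GG. They were apart as well at the second base before the CC (82.2% against 75.1%) and the third (80.1% against 73.7%). A run of 4 A or 4 T in the core was found in 41.9%, 44.3% and 43.7% of the boxes.

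The AGL79 window printed above held no box with at most 1 mismatch but 2 boxes of the MEF2 type, and this type was counted after that sequence had been seen. It lay in 8.70% of the windows only in FUL-AG-SEP3 (7.58% to 9.96%, 188 windows), 7.47% of the shared windows (6.46% to 8.63%) and 4.10% of the windows only in FUL-AG (2.73% to 6.14%, 22 windows). Control windows held it in 0.833%, 0.571% and 0.560% of cases, and 0.757% of all genomic windows did. Its A/T-rich letters move with the base composition given above, and their part in this difference was not tested.

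The highest peaks only in FUL-AG-SEP3 lay in or near a variety of genes, and none of the first 8 in a coding exon. The highest of all lay 5114 bp from the start of the pseudogene AT1G40076 (fold 4.89, percentile 95.9). The second lay in the 3′ UTR of UBP18 near AT4G31660, which encodes an AP2/B3-like factor (fold 4.77). The third lay 513 bp upstream of KCS6, an enzyme that elongates the fatty acids of cuticular wax (chr1:25715351-25715686, fold 4.72), with an exact box 7.5 bp from the summit. The box of KCS6 and that of the fourth peak, near AT2G35850, are shown as the exact boxes among the 8, in capitals with 10 bases on each side.
KCS6: agcacatataCCTTAAAAGGcatatattac
AT2G35850: tatttgttttCCTTATTTGGtaaatattaa
The other 4 had a fold of 4.61 each, in introns of AT1G36970, AAE16 (near SBP3) and AGL79 and upstream of AT5G06700, and the next peak of the list stood at 4.61 as well. A FUL-SEP3 peak was present at 4 of the 8, those near AT4G31660, AT2G35850, AT1G36970 and AGL79. In the highest quartile, 48.9% of the peaks only in FUL-AG-SEP3 had one. A FUL peak was present at KCS6, AT2G35850, AGL79 and AT5G06700. A FUL-SOC1 peak was present at AT4G31660, KCS6, AT2G35850, AT1G36970 and SBP3.

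The highest peaks only in FUL-AG were 9, since the last of them were tied. Of these, 3 lay in coding exons, those of UBP10, a deubiquitinating enzyme (fold 4.17, percentile 87.2), APS2 (3.96) and AT1G27040 (3.93). Introns held 4, in SULTR1;1, a high-affinity sulfate transporter (4.03), AT1G35510 (3.93), scpl30 (3.88) and AT1G39070 (near AT1G39515, 4.14). The remaining 2 lay upstream of AT5G09700 (3.93) and AT5G43415 (3.88). None of the 9 overlapped a FUL-SEP3 peak, where 8.33% of the peaks only in FUL-AG in the highest quartile did. A FUL peak was overlapped at UBP10, AT1G39515, SULTR1;1, AT1G35510 and AT5G43415, and a FUL-SOC1 peak at AT1G39515. Exact boxes lay in 3 of the windows.
AT1G35510: tttgctttttCCTATTTTGGgttggttaca
AT5G09700: gcaaatttgtCCATTTTTGGctgaatggct
AT5G43415: cgatttttacCCAATAATGGtacgaaccaa

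Nearest genes were assigned by the closest start. The peaks only in FUL-AG-SEP3 belonged to 2070 genes (5.46% of the 37899 annotated genes), the shared peaks to 2164 genes (5.71%) and the peaks only in FUL-AG to 524 genes (1.38%). A peak of either list was nearest to 4562 genes (12%). Of the 2070 genes, 162 also had a shared peak and 32 also had a peak only in FUL-AG. Genes named from FUL-AG-SEP3 and not from FUL-AG in any way numbered 1904, those named from FUL-AG and not from FUL-AG-SEP3 490, and those named from both 2168. The summit was within 3 kb of the start in 90.7% of the peaks only in FUL-AG-SEP3, 90.2% of the shared peaks and 89.7% of those only in FUL-AG.

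The 4 gene lists counted below were chosen with earlier results of these data known, so their shares are a description and no independent test. All genes are the 37899 annotated ones, of which 27444 are protein coding. Of 38 MIKC-type MADS-box genes, the family of FUL, AG and SEP3 themselves, 21 were nearest to a peak (55.3%, against 12% of all genes). Peaks only in FUL-AG-SEP3 were nearest to 8 of them (21.1%, against 5.46% of all genes), shared peaks to 14 (36.8%, against 5.71%) and peaks only in FUL-AG to 2 (5.26%, against 1.38%). The 8 were SEP2, SEP4, AP1, AGL6, AGL16, AGL19, AGL21 and AGL79. FUL, SEP1, SEP3, SHP2, FLC and PI had none.

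Genes of floral organ and meristem identity were among them. AP1, which specifies floral meristems and sepals, had a peak only in FUL-AG-SEP3 1576 bp upstream of its start (chr1:25987699-25988096, fold 3.50, percentile 69.7), which overlapped a FUL-SEP3 peak and held no box with at most 1 mismatch. SEP4 had one 386 bp upstream (chr2:1128721-1128935, fold 3.39, percentile 64.6), and SEP2 one in its 5′ UTR (chr3:466593-466820, fold 2.92, percentile 35.2). AGL6, a close relative of the SEP genes, had one 95 bp upstream of its start, low in the list at percentile 8.31.

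AGL79, a relative of AP1 and FUL in the same clade, carried 3 peaks over its length. The one 33 bp upstream of its start was shared, with a fold of 3.23 in FUL-AG-SEP3 (percentile 55.6) and 3.56 in FUL-AG (percentile 68.5). Those in an intron, 1623 bp and 2280 bp after the start, were only in FUL-AG-SEP3, with folds of 4.61 (chr3:11910342-11910642, percentile 93.6) and 3.07 (chr3:11911067-11911301, percentile 45.8). Within the FUL-AG-SEP3 list, the highest of the 3 was thus a site that had no FUL-AG peak.

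AGL19, an activator of flowering, showed the same mixture of classes. A peak 34 bp upstream of its start was only in FUL-AG-SEP3 (fold 3.82, percentile 80.6), while one in an intron (4.88 in FUL-AG-SEP3 and 4.20 in FUL-AG) and one 620 bp upstream (2.59 in FUL-AG-SEP3 and 2.56 in FUL-AG) were shared. AGL21, a root-expressed MADS-box gene, had a peak only in FUL-AG-SEP3 667 bp upstream (fold 3.44, percentile 67.3) whose exact box, printed above, lay 0.5 bp from the summit and which overlapped peaks of all 3 other lists.

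Among the MADS-box genes with shared peaks, AG itself had 3. They lay 1593 bp upstream (percentile 45.8 in FUL-AG-SEP3 and 68.5 in FUL-AG), 902 bp upstream (88.9 in FUL-AG-SEP3 and 51.2 in FUL-AG) and in an intron (25.5 in FUL-AG-SEP3 and 13.9 in FUL-AG). SOC1, the floral integrator, had a peak 59 bp upstream of its start that stood at percentile 96.8 in FUL-AG-SEP3 and 82.2 in FUL-AG, and another 618 bp upstream that stood at 24.8 in FUL-AG-SEP3 and 70.1 in FUL-AG. AP3, which specifies petals and stamens, had a shared peak in its 5′ UTR at 95.2 in FUL-AG-SEP3 and 92.0 in FUL-AG, and AGL14, expressed in roots, one in an intron at 94.5 in FUL-AG-SEP3 and 77.7 in FUL-AG.

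The 2 MADS-box genes with a peak only in FUL-AG were SHP1, which acts in carpels and the valve margin, and AGL17. The SHP1 peak lay in the 5′ UTR (chr3:21738095-21738305, fold 3.03, percentile 36.7), and the AGL17 peak in an intron (chr2:9619024-9619215, fold 3.21, percentile 49.2). Neither window held an exact box.

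Of 26 carpel and fruit genes, 11 were nearest to a peak (42.3%, against 12% of all genes), 5 with a peak only in FUL-AG-SEP3 (19.2%, against 5.46%), 8 with a shared peak (30.8%, against 5.71%) and 1 with a peak only in FUL-AG (3.85%, against 1.38%). SUP, a zinc-finger gene that sets the border between stamens and carpels, had the highest of the first kind, 921 bp upstream (chr3:8241228-8241461, fold 4.03, percentile 85.4), with the exact box shown above 10.5 bp from the summit and no peak of the 3 other lists. A second SUP peak, downstream, was shared and low in both lists (percentile 3.37 in FUL-AG-SEP3 and 5.01 in FUL-AG). NGA2, a B3 gene of style development, had 2 peaks only in FUL-AG-SEP3, 670 bp upstream (percentile 12.5) and in the 5′ UTR (percentile 48.9). IND, the bHLH gene of fruit dehiscence, had one 1743 bp upstream (chr4:44616-45123, fold 2.81, percentile 26.9) with 3 boxes of 1 mismatch, and CUC1, a boundary gene, had one in a neighbouring gene 2127 bp upstream (percentile 39.6).

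SPT, a bHLH gene of the carpel margin, was the only listed gene with peaks of all 3 classes. Its peak only in FUL-AG-SEP3 lay 5143 bp upstream (fold 2.77, percentile 25.2), its shared peak 4680 bp upstream (percentile 50.7 in FUL-AG-SEP3 and 52.8 in FUL-AG), and its peak only in FUL-AG in an intron (fold 3.45, percentile 63.0). The HEC genes, bHLH partners of SPT in the gynoecium, had only shared peaks. HEC3 stood at percentile 95.4 in FUL-AG-SEP3 and 97.9 in FUL-AG, HEC1 at 74.4 in FUL-AG-SEP3 and 81.7 in FUL-AG, and HEC2 at 69.7 in FUL-AG-SEP3 and 26.4 in FUL-AG. Each of these HEC peaks also overlapped a FUL peak and a FUL-SEP3 peak. The HEC3 and HEC1 peaks overlapped a FUL-SOC1 peak as well, and the HEC2 peak did not. The paper names HEC3 a prominent FUL homodimer target, from loci significant for FUL-FUL but for neither FUL-SOC1 nor FUL-AG-SEP. The paper's FUL-SOC1 and FUL-AG-SEP sets differ in size from the lists used here. STY1, a gene of style development, had the widest difference among the listed genes, at 80.6 in FUL-AG-SEP3 and 14.4 in FUL-AG (66.6 and 11.2 ranked among the pairs alone).
HEC2, exact box: aacatttttaCCAAATAAGGaagaaaagaa
STY1, box with 1 mismatch: cccgttattcCCATATATAGtacgtactac

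Of 20 floral transition genes, 6 were nearest to a peak (30%, against 12% of all genes), 3 with a peak only in FUL-AG-SEP3 (15%, against 5.46%) and 4 with a shared peak (20%, against 5.71%). A peak only in FUL-AG was nearest to 0 of 20, where 1.38% of all genes had one. The first 3 are repressors of flowering: TEM1, with a peak 2700 bp upstream (fold 3.82, percentile 80.6) that overlapped peaks of all 3 other lists, SMZ, with one 1082 bp upstream (percentile 61.8), and TOE1 (RAP2.7 in the annotation), with 2 downstream of its coding part (percentiles 37.5 and 33.7), both with an exact box. TOE1 also had a shared peak in a coding exon, at 88.0 in FUL-AG-SEP3 and 92.3 in FUL-AG. FD, the bZIP partner of FT, had 3 shared peaks, and TFL1 and SNZ had 1 each.

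Of 27 gibberellin, cytokinin and auxin genes, 2 were nearest to a peak (7.41%, against 12% of all genes). CKX1 had, beside its strong shared peak, one only in FUL-AG-SEP3 1202 bp upstream (percentile 23.2).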

How the data were processed

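The 5 peak lists hold MACS2 narrow peaks as deposited, 1 per mixture, called by the authors on 3 combined replicates against the input. Per the labels and methods, reads were trimmed with Trim Galore and mapped to TAIR10 with HISAT2. The DNA fragments eluted after binding had been amplified for 20 cycles. The fold enrichment the authors deposited is a linear ratio of pileup to local background, and −log10 p is that deposited from MACS2 (q-values were not used). The deposited summit position gave the centre of each window. Read depth per list was not used, as the lists hold none.

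Overlaps, nearest starts, gene parts (coding exon before UTR, other exon and intron) and boxes were computed with Python 3.11.15, NumPy 2.4.6, pandas 2.3.3 and SciPy 1.17.1 on RefSeq's copy of TAIR10, and tested on simulated data. Percentiles are mid-ranks within the own list. Named genes are those of the 8 highest peaks of each class, the 5 pairs furthest apart in list percentile in each direction (some of them described), and every listed gene (111 genes in 4 lists) nearest to a peak, except 1 that is not reported here. The members and lists were chosen with earlier results of these data known. Alternatives were other overlap limits, thresholds, windows, annotations and equal numbers of peaks. Mitochondrial peaks were left out of the comparison.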

Additional observations from a re-analysis of the deposited data

Results flagged for a closer look

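Peaks outside the nuclear chromosomes drew attention as signal in data that the comparison did not use. The FUL-AG-SEP3 list held 21 peaks on the mitochondrial genome and the FUL-AG list 23, of which 19 in FUL-AG-SEP3 and 19 in FUL-AG overlapped a peak of the other list. Their median fold was 1.95 in FUL-AG-SEP3 (1.43 to 3.36) and 1.86 in FUL-AG (1.45 to 2.64).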

How the results depend on the processing

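The lists are single sets of peaks from combined replicates, so no value could be recomputed without a replicate, and the read depth behind them limits which weak sites were called in each. No paired analysis was possible because the lists carry no values per replicate. Of 71 alternatives over 23 results, 33 stayed within the 95% interval of the value reported, or within 1.5 times for counts of genes and pairs, and 38 moved. The 2 alternatives chosen after seeing the data ranked the shared pairs among themselves, which left 51 pairs over 50 points higher in FUL-AG-SEP3 (109 by list percentile) and 49 lower (30). The overlap shares moved to 49.5% of FUL-AG-SEP3 and 78.1% of FUL-AG when peaks had to overlap by 50% of both, to 48.2% and 76.0% with summits within 100 bp, to 64.0% and 64.1% with equal numbers of peaks, and to 62.9% and 63.0% with the 1000 peaks of smallest p. With summits within 100 bp, 98.6% of the highest FUL-AG decile was shared.

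In the order only in FUL-AG-SEP3, shared, only in FUL-AG, the exact box lay in 9.16%, 13.8% and 8.21% of 100 bp windows, in 13.3% and 18.5% of 300 bp windows (the last class within its interval), and in 65.1%, 71.2% and 66.6% with 1 mismatch. Windows with 2 or more boxes were 29.0%, 37.8% and 29.3% at 300 bp and 0.185%, 0.571% and 0% with both boxes exact. With protein-coding genes only, the gene bodies held 46.6%, 53.1% and 59.0% and the 1 kb upstream 20.2% and 16.7%, and 3 kb upstream held 37.5%, 28.8% and 21.3%. With equal numbers of peaks, peaks only in FUL-AG-SEP3 had an exact box in 13.6%, 2 or more boxes in 20.9% and a FUL-SEP3 partner in 26.2%, and shared peaks had 2 or more boxes in 29.0% and a FUL-SEP3 partner in 43.3%. In both alternatives for gene bodies the summits only in FUL-AG-SEP3 stayed less often within genes than those only in FUL-AG.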

Other observations

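Several genes were nearest to more than 1 peak only in FUL-AG-SEP3. With 3 or more such peaks there were 5 genes, AT1G39070, AT1G39511, AT1G40086 (4 peaks), AT1G40093 and AT1G48090, all on chromosome 1 and chosen after their values were seen. The locus numbers of all but AT1G48090 are close together, and AT1G39070 lies within 3 Mb of the pericentromere middle of chromosome 1. Peaks with a FUL-SEP3 partner stood higher in their own list than those without, at median percentiles of 57.3 against 32.3 for peaks only in FUL-AG-SEP3, 86.1 against 55.6 for shared peaks, and 44.7 against 27.5 for peaks only in FUL-AG.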
